A study of Mus musculus with 275 samples.

Results

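The mitochondrial ribosomal protein genes were taken as every probe whose gene symbol begins with Mrpl or Mrps and a digit, with Mrpl48 left out, and their level, their difference between selected lines and their covariation were followed in 3 genetic backgrounds. The rule gave 105 of 25697 probes and 75 of 16593 genes with a symbol: 54 genes had 1 probe, 14 had 2, 5 had 3 and 2 had 4. The samples were striata of mice bred for a strong cataleptic response to haloperidol (High) or a weak one (Low), 1 bead array per animal. The F2 selection, from an intercross of C57BL/6J and DBA/2J, had 41 High and 42 Low animals. HS4, a heterogeneous stock of C57BL/6J, DBA/2J, BALB/cJ and LP/J, had 48 arrays labelled High and 48 labelled Low, and HS-CC, a stock of the Collaborative Cross founder strains, had 48 and 48. Each background held a single High and a single Low line, so selection and chance fixation of alleles cannot be told apart. Age and drug exposure of the animals used for RNA are not given in the sources used here. A p-value therefore measures the spread between animals of these lines, taken as independent. Families are labelled only in HS4, where a fit with family as a random block called 0 members. The fit without family called 0 as well, so this count cannot show whether relatedness matters. The family labels also stand in the same sample titles as the HS4 sex labels doubted below. In F2 and HS-CC no family label was given, so relatedness between animals could not be allowed for.

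Mitochondria carry their own ribosome, which translates the few messages of mitochondrial DNA into core subunits of the respiratory chain and ATP synthase. All of its proteins are encoded in the nucleus, made in the cytosol and imported. The small subunit (most Mrps genes) binds the message and decodes it, and the large subunit (the Mrpl genes, with Mrps30 and Mrps18a) joins the amino acids. Some of these proteins have bacterial counterparts and others are found only in mitochondria. Striatal projection neurons, the main cell type of the tissue, depend heavily on oxidative phosphorylation.

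Transcription factors of the ETS family (GABP), NRF1 and YY1 are known regulators of nuclear genes for mitochondrial proteins, so the promoters of the genes below were searched for CCGGAAG (ETS), GCGCANGCG (NRF1) and AAGATGGCG (YY1) on both strands. The window held 300 bases, 250 of them before the transcription start, from RefSeq on GRCm38.p6, and 66 of the 75 genes matched the table. An ETS match lay in 25 of the 66 genes (37.9%, against 9.93% of all 27025 genes), an NRF1 match in 15 (22.7% against 7.03%) and a YY1 match in 8 (12.1% against 1.64%). Any of the 3 stood in 40 genes (60.6% against 16.5%). Other housekeeping groups had similar shares: any of the 3 stood in 57.4% of 61 cytosolic ribosomal protein genes and 51.4% of 70 oxidative phosphorylation genes, with ETS in 41.0% of the former and NRF1 in 28.6% of the latter. The NRF1 pattern can overlap its own reverse complement. A match describes letters and is not a bound site. Of the 8 genes whose probes passed the test between lines, 6 had a promoter in the table and 5 of these held a match. The stretches below show those matches in capitals, 5′ to 3′ on the gene's strand. Those of Mrpl27, Mrpl39 and the first of Mrps27 lie before the start and the short ones just after it; Mrps7 held no match of these letters.
Mrps27, chr13:99344695-99344754, + strand, ETS: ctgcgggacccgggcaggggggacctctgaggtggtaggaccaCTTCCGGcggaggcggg
Mrps27, chr13:99344790-99344819, + strand, YY1: ggtgcgctccAAGATGGCGgctcccatggt
Mrps24, chr11:5707652-5707681, - strand, YY1: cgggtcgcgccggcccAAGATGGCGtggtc
Mrpl37, chr4:107066821-107066850, - strand, YY1: tgcacgggcaAAGATGGCGgcgtccaggta
Mrpl39, chr16:84735350-84735409, - strand, NRF1 on both strands: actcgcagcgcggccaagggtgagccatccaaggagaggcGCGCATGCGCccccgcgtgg
Mrpl27, chr11:94653693-94653752, + strand, ETS: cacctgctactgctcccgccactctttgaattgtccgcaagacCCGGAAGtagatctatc

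Values are log2-scale intensities, and each selection had been normalized on its own, so no level is set against that of another selection or probe. The background of an array was set as percentile 95 of its 1341 probes for smell and taste receptors, and a probe was taken as expressed when 25 percent or more of a selection's arrays exceeded it. This held for 97 member probes (70 genes) in F2, 96 (69 genes) in HS4 and 97 (70 genes) in HS-CC. Below it in all selections were 1 probe each of Mrpl1, Mrpl19, Mrpl21, Mrpl32, Mrpl45, Mrps14, Mrps31 and Mrps36, and in HS4 a probe of Mrpl15 as well. Mean intensities of expressed member probes ran from 8.99 to 13.5 (F2), 9.15 to 14.2 (HS4) and 9.23 to 13.9 (HS-CC). All 11 probes of spiny neuron markers (Drd2, Adora2a, Penk, Ppp1r1b and others) were expressed in every selection.

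A few arrays stood apart. Arrays were called outlying when their average correlation to the rest fell more than 2.5 SD short of the selection's mean, and there were 3 in F2 (1 High, 2 Low), 4 in HS4 (3 High, 1 Low) and 1 in HS-CC (High), with lowest mean correlations of 0.933, 0.525 and 0.643. Repeating the step until none was left removed 12, 21 and 9. All were kept in the tests, and results that rest on them are given both ways. The sex in the HS4 labels matched the level of the Y-linked gene Eif2s3y on only 41 of 96 arrays. The High or Low label and the family label stand in the same sample titles, so they are in doubt as well. Whether they fit the arrays was not tested, and HS4 lines are named as labelled.

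In F2, mitochondrial ribosomal protein probes were on the whole slightly higher in the High line, and 4 of them passed the test. All 4, Mrpl13, Mrps27, Mrps35 and Mrps24, were higher, by 0.081 to 0.117 on the log2 scale, and none was lower. They made up 4.12% of the 97 tested, where 0.353% of all expressed probes passed in that direction and 0.922% in either (limma, Benjamini-Hochberg adjusted p under 0.1 over 15300 probes). The median difference of the members was 0.020, against −0.0007 over all expressed probes, and 70 of 97 (72.2%) were above 0, against 48.9%. 

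Mrpl13, a large subunit protein with a bacterial counterpart, had values from 11.67 to 12.11 (median 11.87) in 41 High animals and from 11.57 to 12.01 (median 11.79) in 42 Low animals (probe ILMN_2982192). The ranges overlapped, but 36 of 41 High animals lay above the Low median. The difference was 0.08 (standard error 0.02, adjusted p = 0.0218). Its other probes, ILMN_2982200 at 0.10 (standard error 0.06) and ILMN_2601654 at 0.02 (standard error 0.02), did not pass.

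Mrps27, a pentatricopeptide repeat protein of the small subunit, ran from 8.89 to 9.48 (median 9.27) in High and from 8.88 to 9.45 (median 9.14) in Low animals. The lines overlapped over nearly their whole range, and 34 of 41 High animals lay above the Low median. The difference was 0.12 (standard error 0.03, adjusted p = 0.0373). The probe is dim and exceeded background in 36 of 41 High animals and in 31 of 42 Low ones, and a difference so close to background may be understated.

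Mrps35, a small subunit protein particular to mitochondria, ran from 10.3 to 10.7 (median 10.42) in High and from 10.1 to 10.6 (median 10.35) in Low animals. High animals exceeded the Low median in 37 of 41 cases, and the difference was 0.08 (standard error 0.02, adjusted p = 0.0513). Mrps24, which has a bacterial counterpart near the entry of the message, ran from 12.2 to 12.8 (median 12.50) in High and from 12.1 to 12.9 (median 12.40) in Low animals. Here 31 of 41 High animals lay above the Low median, with a difference of 0.11 (standard error 0.03, adjusted p = 0.0967). Its call was the least secure of the 4: over all probes without a filter the adjusted p was 0.151, and with an intensity trend 0.12, within a range of 0.00940 (array weights) to 0.151 over the settings tried.

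Of the 37 expressed small subunit probes 3 passed (8.11%), and of the 59 large subunit probes 1 (1.69%). That small and large subunit differ was not tested. Members with larger differences did not pass because their spread was wider. Mrps15 lay at 0.13 (standard error 0.08, adjusted p = 0.698), Mrps26 (ILMN_3005828) at 0.12 (standard error 0.04, adjusted p = 0.32) and Mrpl52 at 0.12 (standard error 0.09, adjusted p = 0.809). A second Mrps26 probe lay at 0.01. On the lower side the largest differences were those of both Mrps33 probes, −0.07 and −0.06, followed by Mrpl35 at −0.06 and Mrpl33 (ILMN_2629835) at −0.04, none past the threshold. At an unadjusted p under 0.05 there were 14 members (14.4%, against 8.76% of all expressed probes), 12 of them higher.

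**Figure D1:**
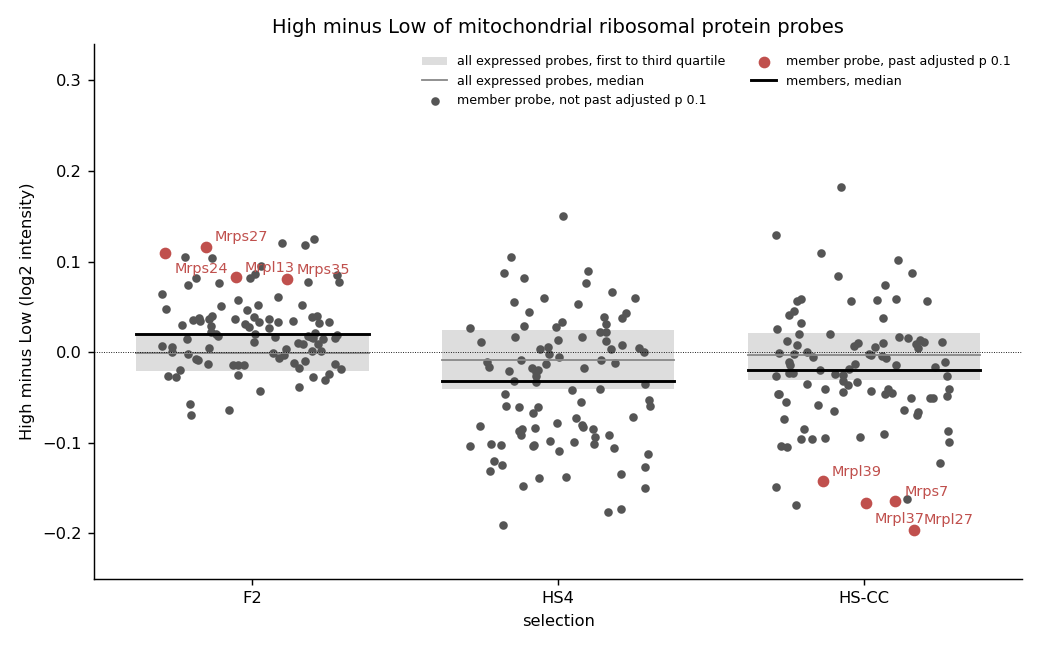
High minus Low difference (vertical axis, log2 intensity) of each expressed member probe in the F2, HS4 and HS-CC selections; grey bands span the lower to upper quartile of all expressed probes, and lines mark medians. The 4 red points of F2 lie above 0, the 4 of HS-CC below 0, and HS4 has none.

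In HS-CC the members that passed were lower in the High line. Mrpl37, Mrps7, Mrpl39 and Mrpl27 fell by 0.14 to 0.20 on the log2 scale, and no member was called higher. These 4 of 97 (4.12%) compare with 2.22% of all expressed probes called lower and 3.41% called in either direction, so the share is close to that of the whole array. The median member difference was −0.019 against −0.003 over all expressed probes, with 33 of 97 above 0, a share of 34.02% against 46.2%. The single outlying High array bore on both: without it the median was −0.009, and 7 members passed, 6 lower and 1 higher, which added Mrpl12, a second Mrps7 probe and, as the higher member, a probe of Mrpl51. At that setting 4.54% of all expressed probes passed. After repeated removal 5 passed, 4 lower and 1 higher, against 4.29% of all.

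Mrpl37, a large subunit protein found only in mitochondria, ran from 10.1 to 11.8 (median 11.50) in 48 High and from 11.4 to 12.4 (median 11.61) in 48 Low animals (probe ILMN_1254715). The lines overlapped, yet 38 of 48 High animals lay below the Low median. The difference was −0.17 (standard error 0.04, adjusted p = 0.0121), a High to Low ratio of 0.891, and without the outlying array it was −0.14 (adjusted p = 0.00268). The second Mrpl37 probe, ILMN_2751709, did not follow: it lay at 0.02 (standard error 0.03, adjusted p = 0.827), and the correlation of the 2 probes within lines was 0.08 after outlying arrays were left out repeatedly.

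Mrps7, whose bacterial counterpart organises the head of the small subunit, ran from 9.24 to 10.71 (median 10.23) in High and from 10.10 to 10.96 (median 10.38) in Low animals (probe ILMN_2981821). Its High values lay below the Low median in 40 of 48 animals. It fell by 0.16 (standard error 0.04, adjusted p = 0.0168), and its second probe lay at −0.12 (standard error 0.05, adjusted p = 0.259). The 2 probes correlated at 0.34 after the repeated removal.

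Mrpl39, also particular to mitochondria, ran from 8.98 to 10.1 (median 9.70) in High and from 9.53 to 10.2 (median 9.83) in Low animals, with 34 of 48 High animals below the Low median. The difference was −0.14 (standard error 0.04, adjusted p = 0.054). After repeated removal of outlying arrays it was −0.11 with an adjusted p of 0.156, which lost the call. Mrpl27, whose bacterial counterpart reaches into the peptidyl transferase centre, ran from 11.1 to 12.5 (median 11.87) in High and from 11.4 to 12.6 (median 12.09) in Low animals. It had the largest difference of the members in HS-CC that passed, −0.20 (standard error 0.06, adjusted p = 0.084), with 37 of 48 High animals below the Low median. Without a filter on low values its adjusted p was 0.134.

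Mrpl12, the stalk protein that contacts elongation factors, lay at −0.17 in HS-CC but with a standard error of 0.06 and an adjusted p of 0.123. Members on the higher side did not pass: a probe of Mrpl10, which forms the base of the same stalk, at 0.18 (standard error 0.08, adjusted p = 0.259), Mrps18c at 0.13 (standard error 0.11), Mrpl53 at 0.11 (standard error 0.05) and Mrps10 (ILMN_2841840) at 0.10 (standard error 0.05). The other Mrpl10 probe lay at 0.01. At an unadjusted p under 0.05 there were 18 members (18.6%, against 12.3%), 4 of them higher.

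**Figure D2:**
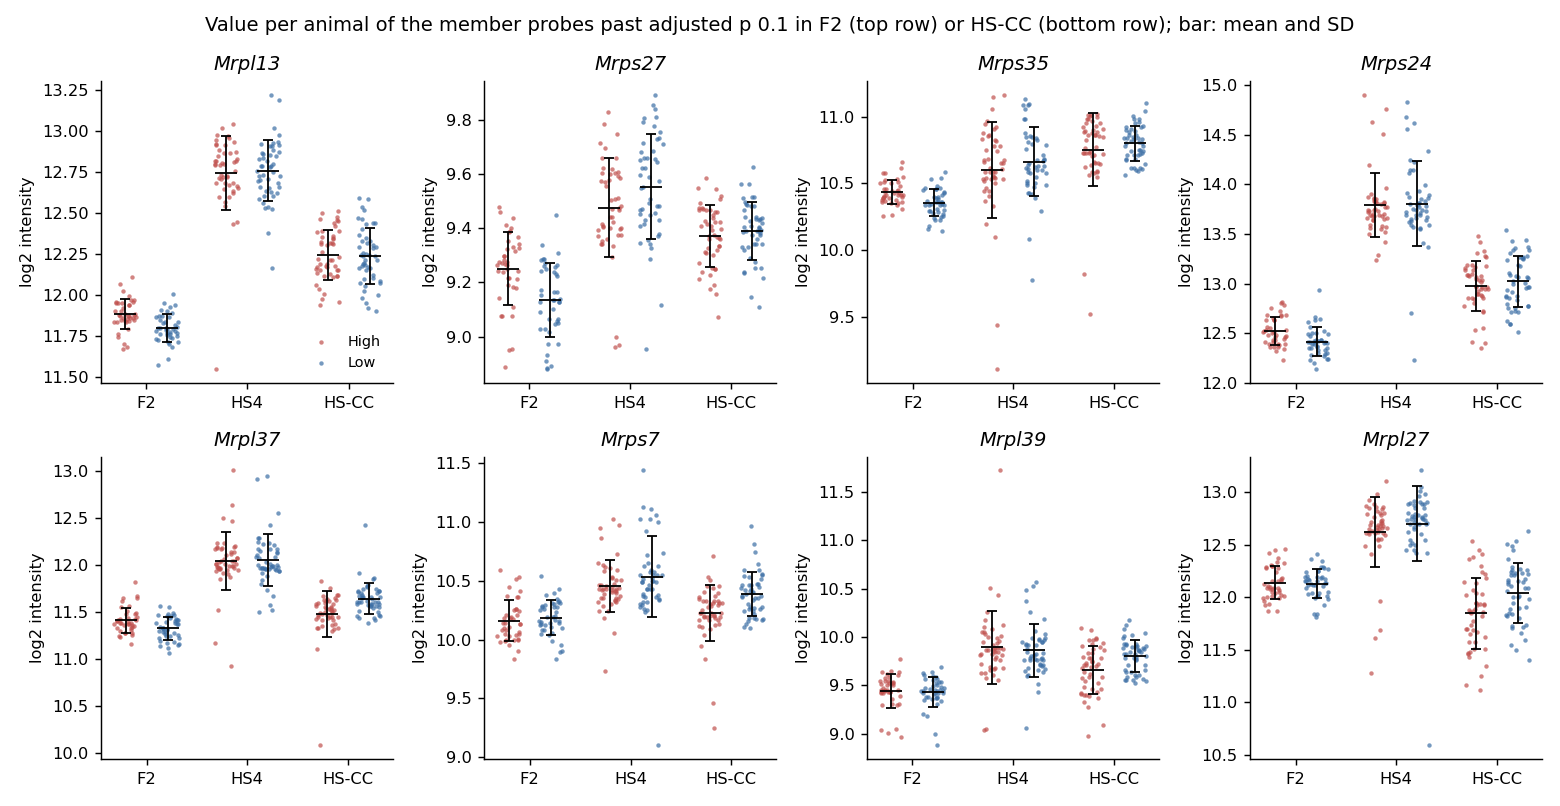
Log2 intensity (vertical axis) of the 8 member probes past the threshold, 1 point per animal in the High (red) and Low (blue) line of each selection, with mean and SD; the top row passed in F2 and the bottom row in HS-CC. The lines overlap in every panel, and in HS4 and HS-CC single points lie far from the rest. Heights may not be compared between selections.

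The called members lay on 6 chromosomes. Mrps24, Mrps7 and Mrpl27 are on chromosome 11, which holds the most member genes, 11. Among expressed probes within 1 Mb, none called neighboured the 4 F2 members. Only 0.922% of all expressed probes were called in F2, a rate at which few or no calls would fall there. The share in HS-CC was 3.41%. In HS-CC the neighbours called were Atp5j beside Mrpl39 (1 of 10 probes), Cyb5rl and Tceanc2 beside Mrpl37 (3 of 24, 2 of them lower), Exoc7 beside Mrps7 (1 of 50), and Ankrd40, Nme1, Pdk2 and Xylt2 beside Mrpl27 (4 of 35, all lower like Mrpl27). Whether these share inherited segments was not tested.

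In HS4 no member passed among 96 (limma, 0.046% of all 15219 expressed probes passed), and 3 members (3.13%, against 3.22%) had an unadjusted p under 0.05, Mrps12, Mrps18c and Mrps27, all lower on arrays labelled High. The median was −0.032 against −0.009, with 33 of 96 members (34.4%) above 0 against 41.6%. Without the 4 outlying arrays the median was −0.009, but it was −0.028 after the repeated removal and −0.023 with array weights. The lowest differences were those of Mrps21 at −0.19 (standard error 0.10), Mrpl52 at −0.18 (standard error 0.12), Mrps12 at −0.17 (standard error 0.08) and Mrps28 at −0.15 (standard error 0.10). The highest were Mrpl53 at 0.15 (standard error 0.12), Mrpl18 (ILMN_2659762) at 0.10 (standard error 0.10), Mrpl3 (ILMN_1231390) at 0.09 (standard error 0.12) and the second Mrpl37 probe at 0.09 (standard error 0.08), all with adjusted p = 0.989. The median standard error of a member, 0.077, was wider than in F2 (0.031) or HS-CC (0.043), so a difference of the size seen in F2 could be missed here. Wrong line labels could also hide a difference, and whether the labels fit the arrays was not tested. By each alternative listed in the closing section the count in HS4 was also 0.

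None of the 8 called probes passed in another background. Few expressed probes of any kind were called: 0.922% (F2), 0.046% (arrays labelled HS4) and 3.41% (HS-CC). At these rates few or no repeat calls would fall among 8 probes, so their absence does not set the members apart. The F2 genes in HS-CC lay at 0.01 (Mrpl13), −0.02 (Mrps27), −0.05 (Mrps35) and −0.05 (Mrps24), none past the threshold. The HS-CC genes in F2 lay at 0.09 (Mrpl37, standard error 0.03, adjusted p = 0.181), −0.02 (Mrps7), 0.01 (Mrpl39) and 0.01 (Mrpl27). On arrays labelled HS4, Mrpl27 and Mrps7 both lay at −0.08, on the same side as in HS-CC, but with adjusted p = 0.989 (limma). For each, 33 of 48 arrays labelled High lay below the Low median. In the joint fit described below, Mrpl37 lay near 0 in HS4, at −0.01, and Mrpl39 on the other side, at 0.03. The median of all members in HS4 was itself below 0, at −0.032, so a negative sign there does not set a gene apart. Of 97 members, 51 were above 0 in F2 and below 0 in HS-CC and 14 the other way, which left 32 (33.0%) with the same sign, against 50.2% over all probes expressed in both. Between F2 and HS4 the share was 44.8% (48.9% over all), and between HS4 and HS-CC 59.4% (56.2%). These selections share no animals.

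The differences between backgrounds were tested as interactions in a joint fit of the 6 groups, for which the arrays of the selections were quantile normalized together. Mrpl37 passed between F2 and HS-CC: it was higher in High by 0.09 in F2 and lower by −0.17 in HS-CC, an interaction of 0.26 (standard error 0.07, adjusted p = 0.0203). In F2 its values ran from 11.16 to 11.82 (median 11.38) in High and from 11.06 to 11.57 (median 11.32) in Low animals, so that 32 of 41 High animals lay above the Low median, where 38 of 48 lay below it in HS-CC. It was the only one of 96 members to pass (1.04%), the same share as among all 13994 probes (1.04%). Between F2 and HS4 only Mrps27 passed, at 0.12 in F2 and −0.07 on arrays labelled HS4, an interaction of 0.19 (standard error 0.04, adjusted p = 0.0858), against 0.0429% of all probes. On arrays labelled HS4 it ran from 8.96 to 9.83 (median 9.47) in High and from 8.95 to 9.89 (median 9.56) in Low, and 30 of 48 labelled High lay below the Low median. Between HS4 and HS-CC no member passed, against 0.829%. Without the outlying arrays 4 members passed between F2 and HS-CC (2.37% of all probes did), 1 between F2 and HS4 (0.222%) and 4 between HS4 and HS-CC (1.88%).

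**Figure D3:**
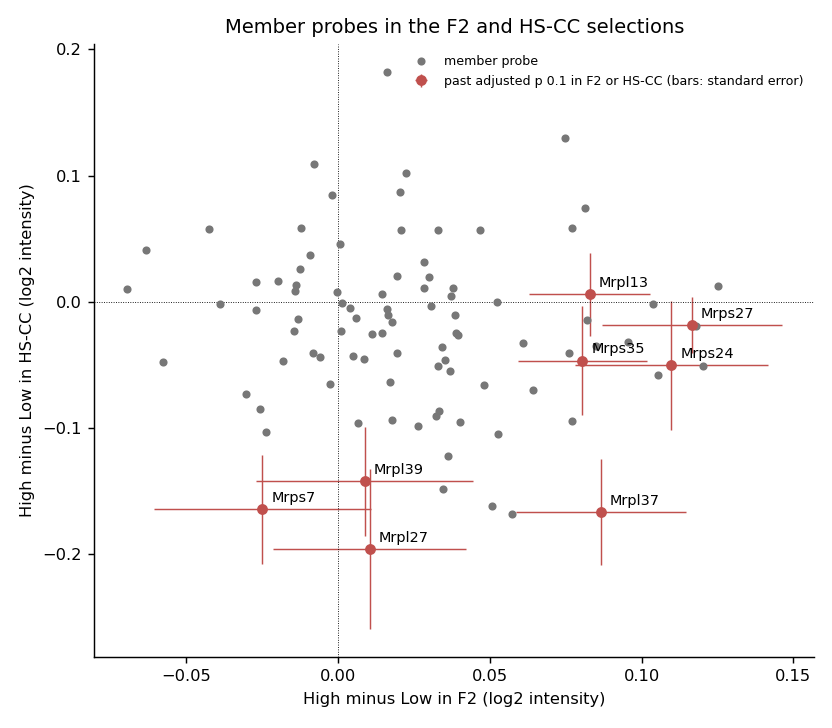
High minus Low difference of each member probe expressed in all selections in F2 (horizontal axis) against HS-CC (vertical axis), both in log2 intensity; red points passed in either selection and carry standard errors. Mrpl37, at 0.09 and −0.17, is the red point at the lower right.

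The rest of the mitochondrial translation apparatus was counted from the same fits. In HS-CC 3.41% of all expressed probes passed, and 2.22% passed as lower. The lists below, in order, had 33.3%, 8.7%, 3.85% and 9.09%. They are small, and the calls of the first and the last list are probes of 1 gene each. In HS-CC, Dap3, a GTP-binding protein of the small subunit, was lower by 2 probes, at −0.15 (standard error 0.04, adjusted p = 0.0185) and −0.18 (standard error 0.04, adjusted p = 0.00857). They were 2 of 6 expressed probes of ribosomal subunits that carry other names, and none passed in F2 or HS4. In F2 the 6 probes of that list had a median of −0.12, with 1 of 6 above 0 and 3 at an unadjusted p under 0.05, unlike the members, whose median was above 0. Of 23 probes of translation factors and tRNA modifiers 2 passed, both lower in HS-CC: Mto1 at −0.12 (adjusted p = 0.016) and Gtpbp3 at −0.08 (adjusted p = 0.0517), which together modify the wobble base of mitochondrial tRNAs. Of 26 assembly factor probes 1 passed, Tfb1m, the methyltransferase of small subunit rRNA, which was higher at 0.16 (standard error 0.04, adjusted p = 0.0105). Of 22 probes of transcription factors and regulators of mitochondrial genes, both that passed belonged to Mterf1a, a terminator of mitochondrial transcription, at −0.14 and −0.12. None of these 3 lists had a call in F2 or HS4.

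Nuclear genes for oxidative phosphorylation subunits had 4 of 91 probes lower in HS-CC (4.4%, against 2.22% of all expressed probes): Atp5e at −0.41 (adjusted p = 0.000783), Atp5j at −0.21 (adjusted p = 0.0611), Atp5g1 at −0.12 (adjusted p = 0.0861), all of ATP synthase, and Sdhb at −0.13 (adjusted p = 0.00417), of complex II, which has no subunit made by the mitochondrial ribosome. In F2, 1 of 94 passed (1.06%, against 0.922% of all expressed probes), and in HS4 0 of 93. The F2 probe was Ndufa8 of complex I, higher at 0.12 (limma, adjusted p = 0.0276). The medians of the list, 0.023, −0.020 and −0.023, had the same signs as those of the ribosomal genes, 0.020, −0.032 and −0.019. Medians over all expressed probes were −0.0007, −0.009 and −0.003, so the sign in HS4 and HS-CC was also that of the whole array. Cytosolic ribosomal proteins had medians of 0.012, −0.006 and −0.003, again of the same signs. Rps15a and Rps3 were lower in F2 (2.78% of the list) and Rps24 in HS-CC (1.43%).

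In bulk tissue, fewer cells of a type and less RNA per cell cannot be told apart. Markers of other cells that passed were Bcl11b (spiny neurons, −0.28) and Hbb-bt (red cells, −0.47) in F2, and C1qc (microglia, −0.30), Aldh1l1 (−0.10) and Slc1a2 (−0.20; both astrocytes) and Cldn11 (oligodendrocytes, 0.30) in HS-CC. In HS-CC, where 3.41% of all expressed probes passed, 2 of 12 expressed astrocyte probes did, and 11 of the 12 were below 0 (median −0.04). The mean of that list ran from 11.1 to 11.6 in High and from 11.2 to 11.6 in Low animals. For microglia 1 of 9 passed and 4 of the 9 were above 0 (median −0.004), with list means of 10.24 in High and 10.29 in Low at the median. Choroid plexus probes were above 0 in 6 of 6 cases in both F2 and HS-CC, none past the threshold, with list means higher in High by 0.10 and 0.16. Their part in the differences above was not tested.

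The members also varied together among animals of a line, weakly on average. With line means subtracted, the median Pearson correlation over pairs of probes of different genes came to 0.085 (F2), 0.231 (HS4) and 0.135 (HS-CC), against 0.011, 0.038 and 0.015 over pairs of all expressed probes. The values are descriptions over pairs that share arrays, and no test was made. The pairs of all expressed probes were not matched to the members for intensity, and the part of intensity was not tested. A few arrays carried much of the HS4 value. After repeated removal, which left 71, 75 and 87 arrays, the medians were 0.064, 0.085 and 0.086, while those of all expressed probes lay between −0.002 and 0.001. The spread among pairs was wide, with a lower quartile of −0.08 and an upper quartile of 0.21 in F2. Pairs within the small subunit (0.054, 0.061 and 0.086), within the large subunit (0.065, 0.091 and 0.080) and between subunits (0.068, 0.085 and 0.087) had similar medians on those arrays.

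On the same arrays, oxidative phosphorylation subunits had medians of 0.095, 0.069 and 0.158 among themselves and 0.061, 0.061 and 0.106 with the members. Cytosolic ribosomal proteins had 0.079, 0.094 and 0.299, above those of the members in each selection and most of all in HS-CC. In the HS-CC High line the median with all arrays was 0.183 and in the Low line 0.079. The outlying array lies in that High line, and after repeated removal the lines had 0.098 and 0.093.

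**Figure D4:**
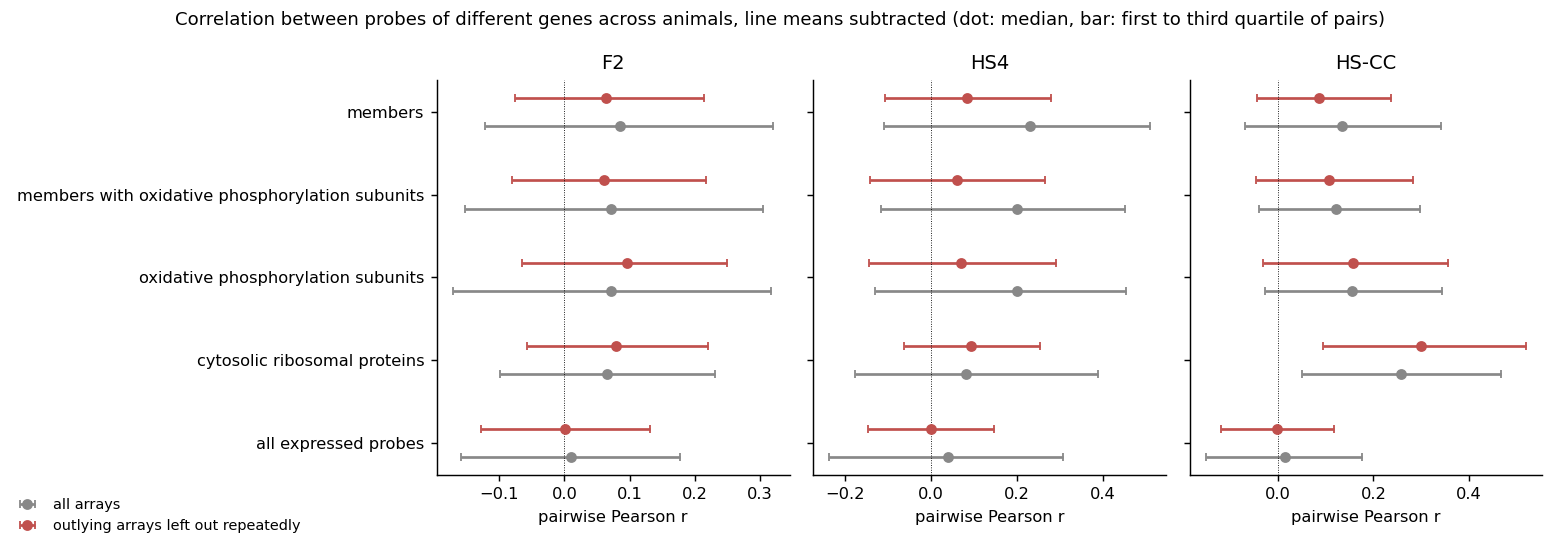
Pairwise Pearson r between probes of different genes across animals (horizontal axis) for 5 kinds of pairs in each selection; dots are medians and bars the lower to upper quartile of pairs, grey for all arrays and red after outlying arrays were left out repeatedly. Member medians shrink from 0.231 to 0.085 in HS4 and stay above those of all expressed probes in each panel.

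Some members had a high mean correlation with the others in more than 1 background. With all arrays the highest were Mrpl12, Mrpl46 and Mrps34 in F2 (all 0.24), Mrpl27 (0.40), Mrps18b and Mrpl12 (both 0.38) in HS4, and Mrpl14 (0.32), Mrps16 (0.31) and Mrps28 (0.30) in HS-CC. The lowest were single probes of Mrpl1 (−0.14), Mrps15 and Mrpl47 (both −0.12) in F2, of Mrps5 (−0.30), Mrpl51 (−0.27) and Mrps23 (−0.24) in HS4, and of Mrpl49 (−0.20), Mrps25 (−0.19) and Mrpl51 (−0.18) in HS-CC. After repeated removal, the highest mean correlation with the other members was that of Mrpl46 in F2 (0.19) and in HS4 (0.20), followed in F2 by Mrpl17 and Mrps28 (both 0.18) and in HS4 by Mrpl27 and Mrps11 (both 0.19). In HS-CC it was Mrpl14 (0.25), then Mrps16 (0.24) and the Mrpl13 probe ILMN_2982192 (0.22). The lowest were Mrpl50, Mrpl45 and Mrpl1 in F2 (all −0.08), Mrps35 (−0.11), the Mrpl13 probe ILMN_2601654 (−0.08) and Mrps15 (−0.06) in HS4, and Mrps2 (−0.13), Mrps27 (−0.09) and Mrpl16 (−0.07) in HS-CC. Over the 96 probes expressed everywhere, mean correlations of a probe in 2 selections correlated at 0.51 (F2 and HS-CC), 0.52 (F2 and HS4) and 0.38 (HS4 and HS-CC), across probes that are not independent of each other. With all arrays these were 0.25, 0.25 and 0.45.

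Individual pairs were much tighter than the median. The 5 pairs of probes with the highest correlation after repeated removal were taken in each selection, and the pair of Mrpl13 and Mrpl18 was among them in both HS4 and HS-CC. These were 14 different pairs, and their 27 values in selections that had not picked them were all positive, from 0.25 to 0.77. Of all member pairs on those arrays, 61.9% (F2), 61.6% (HS4) and 66.7% (HS-CC) were positive. Many of the 14 pairs share a probe, so the 27 values are not independent of each other. With all arrays 26 of the 27 were positive; the pair of Mrpl43 (ILMN_2633805) and Mrps26 (ILMN_3005827), taken in F2, stood at −0.02 in HS4 with all arrays and at 0.41 after the removal. Mrpl13 and Mrpl18 (probes ILMN_2982200 and ILMN_2823250), both large subunit proteins with bacterial counterparts, correlated at 0.88 in HS-CC, 0.86 in HS4 and 0.62 in F2. Mrpl33 (ILMN_2629835) and Mrps33 (ILMN_1214937), a large and a small subunit gene, correlated at 0.85, 0.77 and 0.55. Mrpl20 and Mrpl39 were at 0.72 (F2), 0.47 (HS4) and 0.58 (HS-CC), and Mrps9 and Mrpl2 at 0.88 in HS4 but 0.34 in F2 and 0.55 in HS-CC. Spearman values for Mrpl13 and Mrpl18 were 0.87, 0.84 and 0.66.

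Probes of 1 gene often tracked each other only loosely, though their medians lay above those of different member genes. Over 35 such pairs the median correlation after repeated removal was 0.21 (F2), 0.31 (HS4) and 0.10 (HS-CC). Pairs of different member genes had 0.064, 0.085 and 0.086 on the same arrays. The Mrpl33 probes correlated at 0.84, 0.82 and 0.91, but those of Mrps26 at −0.41, −0.07 and −0.43.

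The largest spread within lines was found for Mrpl20 (SD 0.45), Mrpl52 (0.44) and Mrps18c (0.43) in F2, for Mrpl36 (0.64), Mrpl14 (0.59) and Mrpl3 (0.58) in HS4, and for Mrps18c (0.56), Mrps17 (0.41) and Mrpl50 (0.40) in HS-CC. In F2, Mrpl20 had a High median of 12.27 and a Low median of 12.21, but its lowest animals stood at 10.02 and 9.94. For Mrps18c in HS-CC the medians were 12.5 and 12.34, with lowest animals at 9.39 and 11.3. With both lines pooled, the median SD over members was 0.143 in F2, 0.383 for arrays labelled HS4 and 0.217 for HS-CC. Over all expressed probes this pooled SD had medians of 0.122, 0.285 and 0.163.

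The mean of all expressed member probes of an animal followed that of oxidative phosphorylation subunits. Pearson's r was 0.56 in F2 (Spearman 0.58), 0.89 in HS4 (0.69) and 0.82 in HS-CC (0.84), and after repeated removal 0.74, 0.58 and 0.86. The 2 arrays farthest on the x axis changed r to 0.70, 0.86 and 0.85 when left out of the full set. In F2 a small set of animals of both lines stood above the rest in both means, and r within the remaining animals was not computed. With cytosolic ribosomal proteins r was 0.52, 0.59 and 0.65, and after repeated removal 0.53, 0.59 and 0.82. This was 1 of 12 relations computed for each selection, as descriptions. The member mean also ran with the mean of 9 microglia probes, at 0.68, 0.36 and 0.50 with all arrays and 0.60, 0.25 and 0.61 after repeated removal. With the mean of astrocyte probes r was −0.08, 0.06 and 0.39 with all arrays and −0.01, −0.24 and 0.44 after repeated removal. After that removal it was −0.16, −0.24 and −0.36 with cortical neuron probes, and 0.35, 0.19 and −0.16 with spiny neuron probes. Against the share of probes above background r was −0.50, 0.77 and 0.57 with all arrays and −0.46, −0.34 and −0.13 after the removal, so its sign turned in HS4 and HS-CC. Their part in the covariation was not tested. Between lines the member mean was 10.73 ± 0.05 (SD, n = 41) in F2 High and 10.71 ± 0.04 (SD, n = 42) in F2 Low, and 10.93 ± 0.12 (SD, n = 48) and 10.95 ± 0.06 (SD, n = 48) in HS-CC High and Low.

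**Figure D5:**
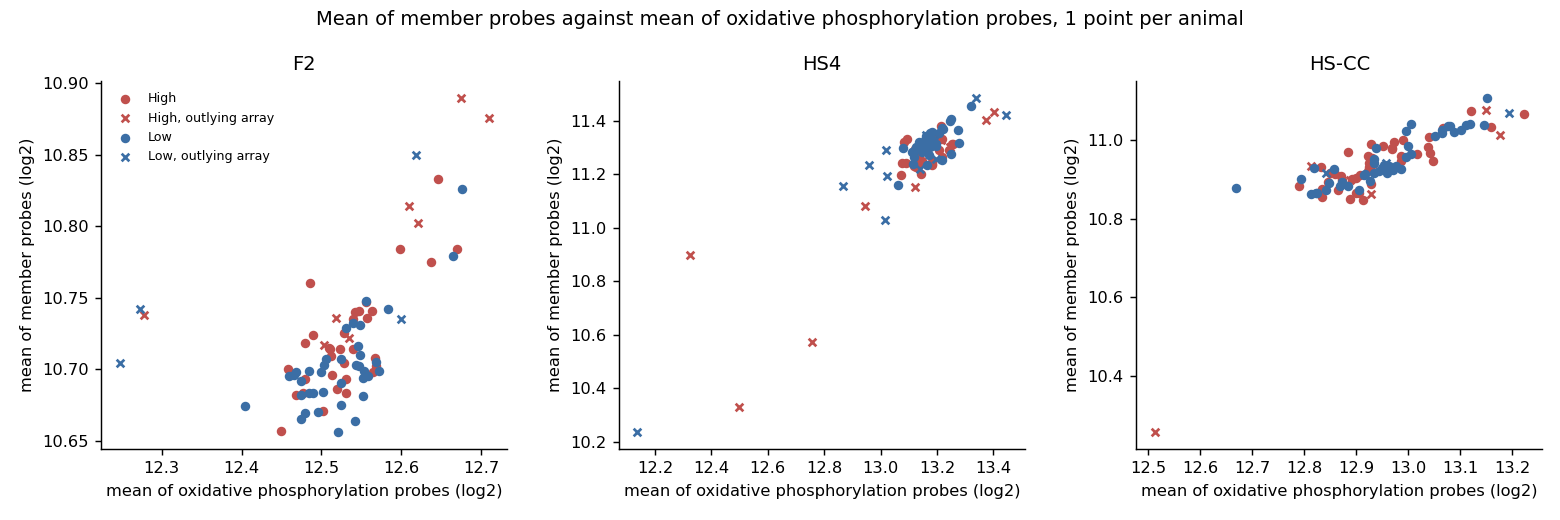
Mean log2 intensity of member probes (vertical axis) against that of oxidative phosphorylation probes (horizontal axis), 1 point per animal, High in red and Low in blue; crosses are arrays removed as outlying. In HS4 and HS-CC the lowest points are outlying arrays, and after their removal r was 0.58 in HS4 and 0.86 in HS-CC.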

How the data were processed

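Striatal RNA of 275 mice was hybridised to Illumina bead arrays, 1 array each, and groups followed the sample labels. The deposited intensities are on a log2 scale, and the authors prepared them with lumi (version and transformation not given in the sources used here) and quantile normalized; repeating this within a selection moved no value by more than 0.00016. Arrays, not read depth, limit the precision. High minus Low was fitted in each selection on expressed probes with limma 3.58.1 (lmFit, eBayes) in R 4.3.3, with Benjamini-Hochberg adjustment and a threshold of 0.1; interactions used 1 fit of 6 groups. The authors' own set of variable probes could not be rebuilt; a like set of 4572 probes, with 41 members, served as an alternative. Python 3.11.15 (numpy 2.4.6, pandas 2.3.3, scipy 1.17.1) gave the correlations, and matplotlib 3.10.9 the figures. Tests were tried on simulated data. The members and lists were chosen with earlier results of these data known. Named members were those called, the 4 largest rises and falls, the 3 highest and lowest mean correlations and the 3 largest SDs per selection. Promoter sequences came from RefSeq, GRCm38.p6; probe sequences were not used.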

Additional observations from a re-analysis of the deposited data

Results flagged for a closer look

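For 2 member probes the High minus Low difference itself differed between backgrounds by the interaction test. Mrpl37 (probe ILMN_1254715) differed between F2 and HS-CC by 0.261 on the log2 scale (standard error 0.0657, adjusted p = 0.0203, limma). It was above the Low median in 32 of 41 F2 High animals and below it in 38 of 48 HS-CC High animals; its other probe differed by 0.01. Mrps27 differed between F2 and HS4 by 0.187 (standard error 0.0438, adjusted p = 0.0858), with 34 of 41 F2 High animals above the Low median and 30 of 48 arrays labelled HS4 High below it. Both tests used a spread shared by all 6 groups, and whether the HS4 line labels fit their arrays was not tested.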

How the results depend on the processing

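Members passing in F2 (4) and HS-CC (4) numbered 0 and 2 on the more variable probes, 2 and 2 at a threshold of 0.05, 7 in F2 with array weights (4.03% of all expressed probes passed) and 7 in HS-CC without outlying arrays (4.54%). Interactions passing (1 for F2 and HS-CC, 1 for F2 and HS4, 0 for HS4 and HS-CC) became 4, 1 and 4 without outlying arrays and 0, 0 and 0 on the more variable probes; at 0.05 the second was 0. The median covariation of 0.085 in F2 was 0.0642 after repeated removal of outlying arrays, 0.111 for probes expressed on 75 percent of arrays and 0.135 with the brightest probe per gene. That of 0.231 in HS4 was 0.104 by Spearman, 0.0721 without outlying arrays, 0.0846 after repeated removal, 0.257 on the stricter probes and 0.299 with the brightest probe. The cause was not tested, except that none of the 4 F2 members is among the more variable probes. No median of the members above changed sign, and no difference of a called member did. Medians over all expressed probes lay near 0 and did turn in places. In F2 the median difference went from −0.0007 to 0.00099 with array weights. In HS4 the median covariation went from 0.038 to −0.0007 after repeated removal. The relation of the member mean to the share of probes above background also turned in HS4 and HS-CC. Repeated removal for calls and medians was chosen after seeing the data.

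Over all expressed probes the calls in F2 rose from 141 to 219 without outlying arrays, 339 after repeated removal and 617 with array weights, and were 72 at 0.05 and 95 on the more variable probes. In HS4 they went from 7 to 24, 99 and 114, and in HS-CC from 516 (3.41%) to 4.54% of probes without outlying arrays, 4.29% after repeated removal, 829 with array weights, 331 at 0.05 and 192 on the more variable probes. Interactions over all probes, 146, 6 and 116, became 331, 31 and 263 without outlying arrays, 87, 3 and 80 on the values as deposited, 97, 2 and 85 at 0.05 and 66, 7 and 30 on the more variable probes. No paired analysis was possible because an animal number that recurs in different groups belongs to separate animals.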
